A study of Mus musculus with 6 samples.

Results

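The genes described here encode the proteins of the cytosolic ribosome. They were chosen by symbol, as every gene named Rps or Rpl with a number and at most a short suffix, together with Rpsa, Rplp0, Rplp1 and Rplp2. The rule took 84 of the 23353 genes listed, of which 33 belong to the small subunit (Rps) and 51 to the large subunit (Rpl). Their mRNA was sequenced from embryoid bodies (EBs), clumps of differentiating mouse embryonic stem cells (mESCs) grown in suspension, after 4 days in serum without LIF, the cytokine that keeps mESCs undifferentiated. Wildtype EBs came from the parental W9.5 line, and EVX1-Δfs EBs came from clone 14, a W9.5 clone in which CRISPR-Cas9 left small frameshift deletions in exon 2 of both copies of Evx1, a homeobox gene of the primitive streak. Both groups had 3 libraries, 1 from each of 3 differentiations set up on different days, and no agent was added to either. Below, libraries with the same replicate number are taken as 1 day and 1 differentiation, which the sample titles do not state. Because the edited line is 1 clone, a difference owed to the edit and a difference owed to the clone cannot be told apart.

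A ribosome is built from ribosomal RNA and a fixed set of ribosomal proteins, so cells make these proteins in matched amounts. The small subunit reads the mRNA, and the large subunit joins the amino acids. Messenger RNAs for ribosomal proteins carry a run of pyrimidines at their start, through which growth signals set how strongly they are translated, and growing embryonic cells hold large amounts of them. Several members also have relatives elsewhere in the genome, either expressed paralogs or the many processed pseudogenes for which this family is known.

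The annotated start sites below are shown because the pyrimidine run is sought at the start of the mRNA. They cover the 3 genes whose level differed between the genotypes (Rps13, Rps27l, Rpl39), a paralog (Rpl22l1) and a pair of genes known for roles in mesoderm and axial patterning (Rpl10a, Rpl38). Each is a 60-base stretch with 30 bases before and 30 after the gene start in RefSeq (GRCm38.p6), and capitals mark the longest run of C and T in it, or the first of them where runs of equal length tie (Rps27l, Rpl10a). In Rps27l, Rpl39 and Rpl10a the capitals lie wholly before the annotated start, so these letters are outside the annotated mRNA.
Rps13, chr7:116334161-116334220, minus strand: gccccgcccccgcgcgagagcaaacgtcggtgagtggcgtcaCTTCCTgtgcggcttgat
Rps27l, chr9:66946056-66946115, plus strand: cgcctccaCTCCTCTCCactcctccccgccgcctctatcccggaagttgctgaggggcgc
Rpl39, chrX:37085193-37085252, minus strand: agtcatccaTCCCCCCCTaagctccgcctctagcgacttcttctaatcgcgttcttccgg
Rpl22l1, chr3:28805478-28805537, plus strand: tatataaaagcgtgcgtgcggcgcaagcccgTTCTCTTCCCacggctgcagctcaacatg
Rpl10a, chr17:28328441-28328500, plus strand: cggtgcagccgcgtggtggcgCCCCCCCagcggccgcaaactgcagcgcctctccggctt
Rpl38, chr11:114668550-114668609, plus strand: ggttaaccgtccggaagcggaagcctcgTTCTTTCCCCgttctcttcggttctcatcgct

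A run of at least 8 pyrimidines within 50 bases on either side of the annotated start was found in 50 of the 63 members with a RefSeq promoter (79.4%), against 35.7% of 27025 promoters in the table. These counts take in runs that lie before the start and so outside the annotated mRNA. The longest run in that window had a median of 10 bases in the members and 7 over all promoters. Rpl39 held a run of 14 bases in the wider window, Rpl22l1 and Rpl38 each held 10 and Rps27l held 9, whereas the run was 7 bases at Rpl10a and 6 at Rps13. Of the motifs searched on both strands in the 300-base promoters, which end 50 bases after the start, the core letters bound by ETS factors, CCGGAA, were present in 50.8% of the members and 15.2% of all promoters. The YY1 letters AAGATGGC were present in 7.94% and 2.88%, the E-box CACGTG in 7.94% and 7.24%, and the TATA letters TATAAA in 9.52% and 14.2%. A match describes these letters only, and a start placed by annotation can lie away from the one used in EBs.

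The libraries held 7597879 to 9914471 reads assigned to genes, recovered from the deposited normalized counts. Between 1.87% and 4.95% of them fell on Rn45s, the precursor of ribosomal RNA. The Evx1 transcript itself was measured at 2358, 2176 and 2400 normalized counts in wildtype EBs and 2354, 2516 and 2012 in EVX1-Δfs EBs, and since small frameshift deletions leave the transcript in place, these values do not check the edit. Of 10 primitive streak and mesoderm markers, limma called 7 lower in EVX1-Δfs EBs. The summed level of all 10 was 20347 to 21944 in wildtype libraries and 12743 to 15783 in EVX1-Δfs libraries. Of 6 endoderm markers, limma called Cer1, Sox17 and Foxa2 higher and Cxcr4 lower. Of the 6 log2 fold changes, 3 lay above 0 and 3 below. Of 8 pluripotency markers, 7 had a log2 fold change above 0, 5 of them at an unadjusted p under 0.05, limma called Fgf5 higher and edgeR and DESeq2 each called 4 higher (summed 13354 to 20742 against 17251 to 21837). Of 5 neural markers 3 passed the filter on low counts, and none was called by limma, edgeR or DESeq2 while 2 had an unadjusted p under 0.05 (summed 2232 to 2982 against 2632 to 2793), and of 6 erythroid markers 1 passed (summed 8.02 to 35.4 against 22.4 to 38.1, with Hbb-y at 0 in every library). The part of this shift in markers in the ribosomal protein results was not tested. Among all genes tested, 10.7% were higher and 12.4% lower at an unadjusted p under 0.05 (limma).

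Ribosomal protein transcripts were among the most abundant in EBs of both genotypes. The members took 10.1%, 9.59% and 10.4% of all normalized counts in wildtype replicates 1 to 3 and 9.68%, 9.81% and 9.26% in EVX1-Δfs replicates 1 to 3. The groups overlapped, with means of 10.03% ± 0.418 and 9.58% ± 0.288 (SD, n = 3 libraries each). The difference was -0.445 percentage points, and -0.0880 with both replicate 3 libraries left out. Small-subunit genes took 4.17% ± 0.210 of the counts in wildtype EBs and 4.00% ± 0.0913 in EVX1-Δfs EBs, and large-subunit genes took 5.86% ± 0.211 and 5.58% ± 0.230.

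The balance between the subunits was alike in range in both genotypes. The ratio of summed small-subunit to summed large-subunit counts was 0.723, 0.697 and 0.716 in wildtype libraries and 0.732, 0.688 and 0.731 in EVX1-Δfs libraries. The lowest and the highest ratio both belonged to the EVX1-Δfs group, so the groups overlapped fully. The mean ratio was 0.712 ± 0.0133 in wildtype EBs and 0.717 ± 0.0250 in EVX1-Δfs EBs (SD, n = 3). With each gene divided by its transcript length the ratio was 0.795 ± 0.0145 and 0.798 ± 0.0238.

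**Figure D1:**
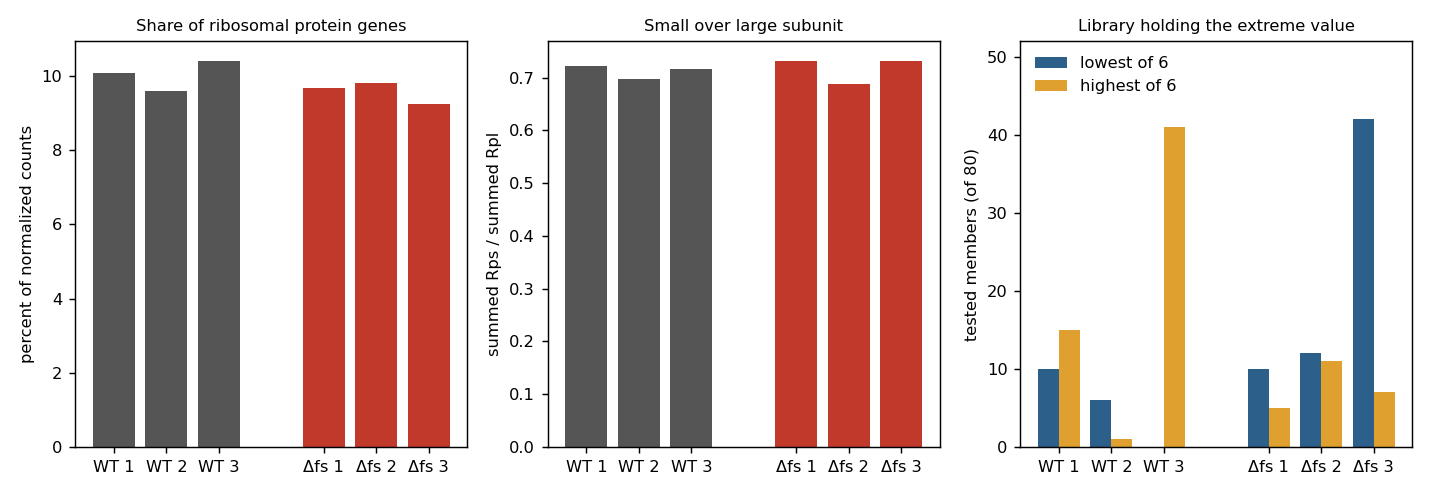
Share of ribosomal protein genes in all normalized counts (percent, left), ratio of summed small-subunit to summed large-subunit counts (middle) and number of the 80 tested members whose lowest or highest value of the 6 libraries lay in each library (right), 1 bar per library and measure. The shares lie between 9.26% and 10.4% and the ratios between 0.688 and 0.732, while EVX1-Δfs replicate 3 holds the lowest value of 42 members and wildtype replicate 3 the highest value of 41.

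Levels among the members were set against each other per kilobase of transcript, averaged over the 6 libraries. The median of the 83 members with a transcript was 11213 normalized counts per kb. The highest were Rps2 (40554), Rpl23a (33506), Rplp1 of the acidic stalk that recruits elongation factors (30214), Rps18 (29225) and Rpl19 (28741). In plain normalized counts, 76 of the 84 members had a mean of at least 1000, 36 of at least 10000, and 7 were under 100. The median tested member had a mean of 8447 normalized counts, against 245 over all tested genes.

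At the low end stood genes whose proteins every ribosome needs. Rps27 was measured at 9.57, 19.5 and 10.3 normalized counts in wildtype EBs and 16.8, 18.0 and 21.0 in EVX1-Δfs EBs, and Rpl34 at 42.1, 30.1 and 38.9 against 25.2, 22.6 and 14.3. Rpl26 lay between 0 and 1.15 and Rpl30 between 0.957 and 9.02 over all libraries. Per kb, Rps27 was at 46.0, Rpl34 at 46.3, Rpl30 at 3.74 and Rpl26 at 1.02 normalized counts, far below the median member. Beside these values stands the share of each transcript that has an exact copy elsewhere in the genome, taken over 50-base windows. It was 99.7% for Rps27, 81.8% for Rpl26, 44.7% for Rpl34 and 44.6% for Rpl30, with a median of 59.8% and a range of 0% to 99.7% over 83 members. Members with abundant transcripts had such copies too. Across the 79 tested members with a transcript, the Spearman correlation between copied share and level per kb was 0.27 (a description across genes, which share the same 6 libraries). Both measures are divided by the length of the chosen transcript, so they are not independent and the correlation is no result about copies. How the reads of copied stretches were counted was not tested, so the levels of these genes are uncertain. Rpl41, the shortest ribosomal protein, was not matched to the annotation used for lengths.

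**Figure D2:**
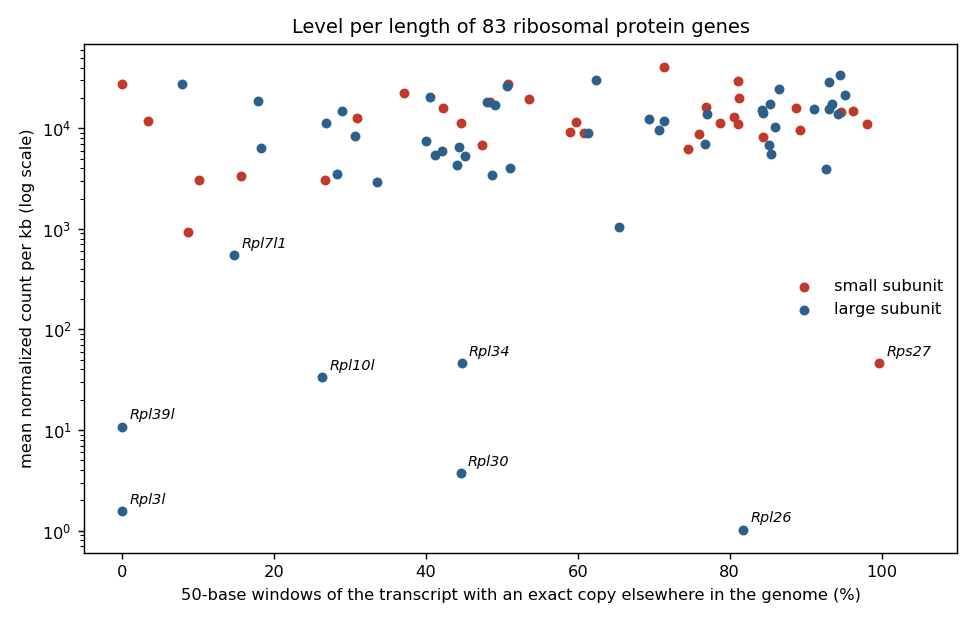
Mean normalized count per kb of transcript over the 6 libraries (log scale) against the share of 50-base windows of the transcript that have an exact copy elsewhere in the genome (percent), 1 point for each of 83 members, coloured by subunit. Most members lie near the median of 11213 at every copied share, and the 8 lowest, which are named, include paralogs such as Rpl3l and Rpl39l as well as Rps27, Rpl34, Rpl30 and Rpl26.

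Comparison of EVX1-Δfs with wildtype EBs tested whether any member changed. Of the 84 members, 80 passed the filter on low values (10 normalized counts or more in 3 or more libraries), among them all 33 small-subunit and 47 of 51 large-subunit genes; Rpl26, Rpl30, Rpl39l and Rpl3l did not. At an adjusted p under 0.05 (limma, Benjamini-Hochberg over all 13136 genes tested), 1 member was lower in EVX1-Δfs EBs, Rps13, and 2 were higher, Rps27l and Rpl39. Over all genes tested, 2.95% were called lower and 2.08% were called higher, and the members' calls lay near these shares. In these bulk samples, fewer cells of a type and less RNA per cell cannot be told apart.

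Rps13, a small-subunit protein, stood apart from the other members. Its normalized counts were 14205, 10564 and 13077 in wildtype EBs and 6984, 5524 and 5767 in EVX1-Δfs EBs. Every EVX1-Δfs library lay below every wildtype library, and the means lay further apart than the values within either group. Means of 12615 ± 1864 and 6091 ± 782 (SD, n = 3) gave a log2 fold change of -1.05 (SE 0.13, limma adjusted p = 8.78e-05), or 0.484 of the wildtype level. Within the 3 same-numbered pairs the difference was -1.02, -0.94 and -1.18 on the log2 scale, its sign being fixed by the separation of the groups. With the day as a block it remained called (limma adjusted p = 0.00271, with 1.11% of all genes called lower and 0.579% higher in that fit), as it did under every one of the 20 alternatives, with log2 fold changes from -1.17 to -0.90.

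Among 1993 tested genes with a mean of at least 1000 normalized counts, 3 had a log2 fold change at or below that of Rps13, itself included. Rps13 lies at chr7:123475021-123477704 on the minus strand (NCBIM37). Of 11 other tested genes within 2 Mb, none was called by limma, edgeR or DESeq2, and the log2 fold changes of the 11 ran from -0.13 to 0.68. At an unadjusted p under 0.05 (limma) 4 of them were higher and none lower, against 10.7% higher and 12.4% lower among all genes tested. The nearest, Pik3c2a, a lipid kinase gene 3086 bases away, was at 402 ± 95.1 normalized counts in wildtype EBs and 575 ± 122 in EVX1-Δfs EBs (log2 fold change 0.52, adjusted p = 0.0663). Plekha7, 23131 bases away on the other side, was at 848 ± 100 and 875 ± 55.2 (log2 fold change 0.049). Of the Rps13 transcript, 88.7% of 50-base windows have an exact copy elsewhere in the genome. The part of such copies in its value was not tested.

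**Figure D3:**
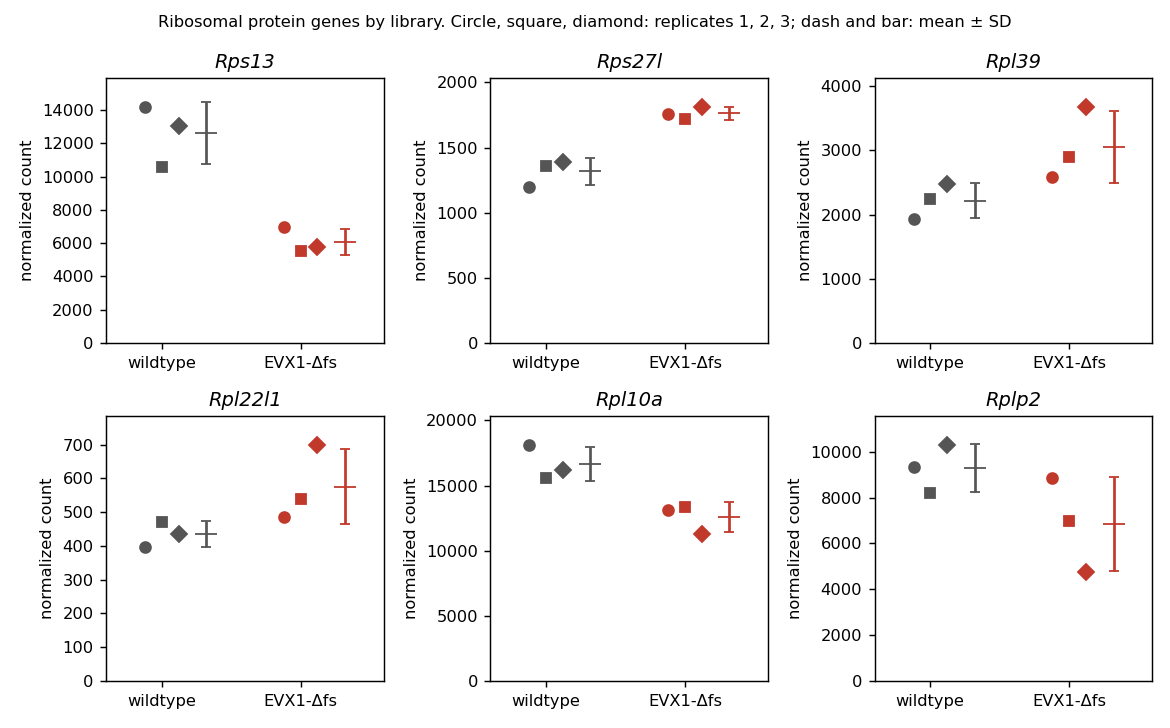
Normalized counts of 6 members in the 3 wildtype (grey) and 3 EVX1-Δfs (red) libraries, on axes that start at 0; circles, squares and diamonds are replicates 1, 2 and 3, and the dash and bar give mean ± SD. The groups are separate for Rps13, Rps27l, Rpl39, Rpl22l1 and Rpl10a, and overlap for Rplp2, whose EVX1-Δfs values run from 8837 to 4738.

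The genes called higher were Rps27l and Rpl39. Rps27l encodes a paralog of the small-subunit protein Rps27 and is known as a p53 target. It was measured at 1201, 1360 and 1391 normalized counts in wildtype EBs and at 1755, 1719 and 1813 in EVX1-Δfs EBs. The EVX1-Δfs values were close together and all above the wildtype ones (means 1317 ± 102 and 1762 ± 47.7, log2 fold change 0.42, SE 0.11, limma adjusted p = 0.0284). With the day as a block it was no longer called by limma (adjusted p = 0.0605) but was called by DESeq2 (adjusted p = 0.0385). With the trends of fold change with GC content and length removed, its log2 fold change was 0.33 and adjusted p 0.0899. The call was also lost without wildtype replicate 1 (limma adjusted p = 0.117), EVX1-Δfs replicate 1 (0.0850) or EVX1-Δfs replicate 3 (0.112). The parent gene Rps27, for which nearly the whole transcript has copies elsewhere, had a log2 fold change of 0.54 (SE 0.38, adjusted p = 0.409) at the low counts given above.

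Rpl39, a small basic protein of the large subunit near the exit of the peptide tunnel, was measured at 1936, 2242 and 2480 normalized counts in wildtype EBs and 2582, 2900 and 3681 in EVX1-Δfs EBs. The groups did not overlap, although the highest wildtype and the lowest EVX1-Δfs value lay close to each other. The log2 fold change was 0.45 (means 2220 ± 273 and 3054 ± 565, SE 0.13, limma adjusted p = 0.0457). With the day as a block it was no longer called by limma (adjusted p = 0.0551) but was called by DESeq2 (adjusted p = 0.0150), and without EVX1-Δfs replicate 3 it was 0.31 (adjusted p = 0.245). Leaving out wildtype replicate 1 (limma adjusted p = 0.163), wildtype replicate 2 (0.0664) or EVX1-Δfs replicate 2 (0.0802) ended the call too. Its paralog Rpl39l, known from the testis, was measured at 3.83, 7.96 and 5.73 against 12.1, 4.51 and 18.1 normalized counts and was not tested.

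The remaining 77 tested members did not pass the threshold, and 77 of the 80 had a log2 fold change between -0.5 and 0.5. After Rps13 the most negative values were those of Rpl34 (-0.83, SE 0.30, adjusted p = 0.103), Rplp2 (-0.48), Rpl41 (-0.43) and Rps15 (-0.43). Rps15, which helps to mature the small subunit, was at 14742, 13895 and 18954 normalized counts in wildtype EBs and 11939, 11360 and 11761 in EVX1-Δfs EBs (adjusted p = 0.0640). Rplp2, a partner of Rplp1 in the acidic stalk, was at 9341, 8203 and 10303 against 8837, 6966 and 4738 (adjusted p = 0.0835). For Rps15 the groups were separate, while for Rplp2 most of the difference lay in EVX1-Δfs replicate 3. The other stalk genes had log2 fold changes of -0.30 (Rplp0) and 0.060 (Rplp1). On the positive side stood Rps27, Rpl39 and Rps27l, then Rpl22l1 (0.39) and Rps4x (0.23, adjusted p = 0.284).

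**Figure D4:**
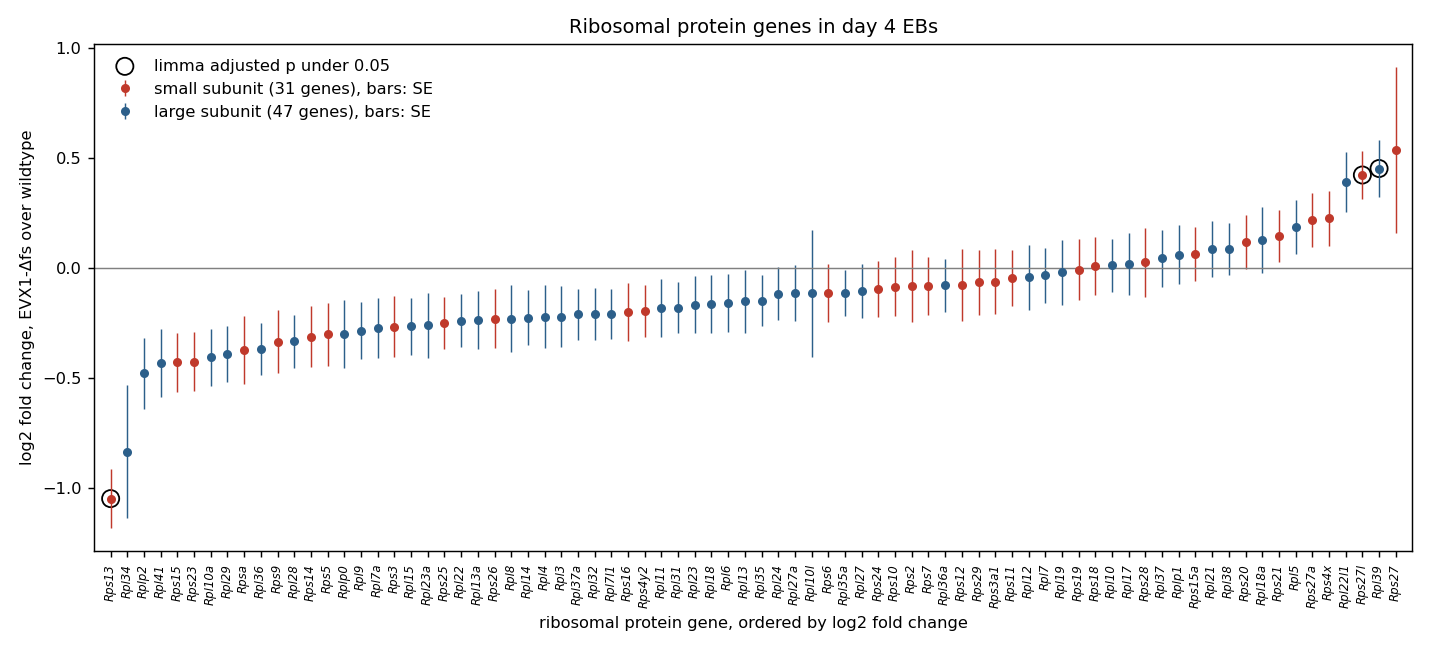
Log2 fold change of EVX1-Δfs over wildtype EBs for 78 of the 80 tested members in order, with standard errors as bars, small-subunit genes in red and large-subunit genes in blue, and circles around the 3 genes with a limma adjusted p under 0.05. Most values lie between -0.5 and 0.25 around a median of -0.13, which quantile normalization moves to 0.016, and Rps13 lies at -1.05.

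The members as a whole were centred slightly below the other genes. Of the 80, 60 (75%) had a log2 fold change below 0, against 49.9% of all genes tested. The median was -0.13 with a range from -1.05 to 0.54, and after quantile normalization it was 0.016. Over all genes the median was 0.00022, a value that the size factors hold near 0. The 3 wildtype libraries lay entirely above the 3 EVX1-Δfs libraries in 21 of the 80 members and entirely below in 3, where the background shares were 14.7% and 12.2%. At an unadjusted p under 0.05, 16 members were lower and 3 higher, against 12.4% and 10.7% of all genes. In all same-numbered pairs, 34 members were lower and 6 were higher, against 23.2% and 21.0%. Across 79 tested members with a transcript, the Spearman correlation of log2 fold change was -0.31 with the GC content of the chosen transcript and -0.051 with its length. Across 12985 tested genes the correlation of log2 fold change was -0.46 with the GC content of all merged exons, a different measure. With the mean level it was -0.28 in the members and -0.27 across all 13136 tested genes, and the members lay far above the other genes in level. These correlations are across genes and are descriptions.

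Between the subunits the contrast was small. Small-subunit genes had a median log2 fold change of -0.081, which turned to 0.074 under quantile normalization, and large-subunit genes had -0.17, which became -0.018. Below 0 were 23 of 33 small-subunit genes and 37 of 47 large-subunit genes, and the groups were separate and lower in 8 and 13 of them. The only called decrease was in the small subunit (Rps13), and each subunit held 1 called increase (Rps27l, Rpl39). Whether the subunits differ beyond the spread of single genes was not tested, and both medians lay within the differences between same-numbered pairs.

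The replicate 3 libraries carried most of the downward shift. The median log2 difference of the 80 members within a same-numbered pair was -0.090, 0.026 and -0.38 for replicates 1 to 3. It was -0.046, 0.026 and -0.36 for the small subunit and -0.14, 0.026 and -0.38 for the large. Over all genes the same medians were between -0.00974 and -0.00149, where the size factors of the deposited values hold them near 0. EVX1-Δfs replicate 3 held the lowest of the 6 values in 42 of 80 members and wildtype replicate 3 the highest in 41. With both of these libraries left out, a choice made after seeing the data, the medians were -0.0044 for the small and -0.060 for the large subunit, and Rps13 stayed at -0.98 (limma adjusted p = 5.03e-06). Without them 2 members were called lower, Rps13 and Rpl36, and 2 higher, Rps27l among them, beside 1.66% and 0.747% of all genes.

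**Figure D5:**
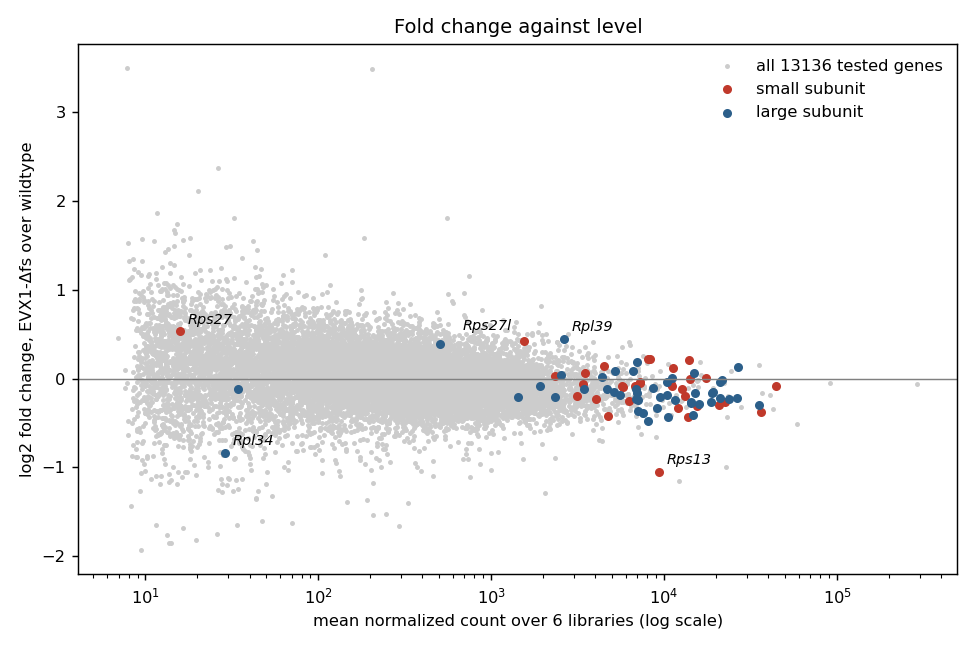
Log2 fold change of EVX1-Δfs over wildtype EBs against the mean normalized count over 6 libraries (log scale), with all 13136 tested genes in grey and small-subunit and large-subunit genes in red and blue. The members crowd at the high end of the scale near 0, with Rps13 at -1.05 below them and the little-measured Rpl34 (-0.83) and Rps27 (0.54) at the low end.

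Paralogs and their parent genes had fold changes of different size or sign. Rpl22l1, a paralog that can stand in for Rpl22 and is known for roles in blood development, was at 396, 472 and 436 normalized counts in wildtype EBs and 485, 540 and 699 in EVX1-Δfs EBs, so that the groups were separate (log2 fold change 0.39, adjusted p = 0.0930). Rpl22 was at 8372, 6903 and 7644 against 6897, 6239 and 6250, separate in the opposite direction (log2 fold change -0.24, adjusted p = 0.229). Neither gene passed the threshold. Rpl7l1 had a log2 fold change of -0.21 and its parent Rpl7 -0.034, and Rpl10l, at 25.2 to 49.2 normalized counts, had -0.11 beside 0.013 for Rpl10. Rpl3l, the form known from heart and skeletal muscle, lay between 0.885 and 3.73 normalized counts, whereas Rpl3 was at 22816 ± 2867 and 19508 ± 1119 (log2 fold change -0.22). Rps4x, on the X chromosome, and Rps4y2, placed on chromosome 6, had values of opposite sign (0.23 and -0.19, adjusted p = 0.284 and 0.328).

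The members listed for developmental or disease roles did not pass the threshold in the main test. Rpl10a, a large-subunit protein known to vary between ribosomes and to affect mesoderm formation, was at 18132, 15584 and 16219 normalized counts in wildtype EBs and 13104, 13354 and 11279 in EVX1-Δfs EBs. The groups were separate, and the log2 fold change was -0.41 (SE 0.13, limma adjusted p = 0.0685). Rpl10a was called lower by DESeq2 (adjusted p = 0.00693), also with the day as a block (0.0309), and by limma without wildtype replicate 3 (0.0462). Rpl38, whose loss alters the axial skeleton, was at 5239, 4555 and 5318 against 5468, 5811 and 4799, with overlapping groups (log2 fold change 0.088, adjusted p = 0.698). Of the proteins known to bind MDM2 outside the ribosome, Rpl5 had 0.18, Rpl11 -0.18 and Rpl23 -0.17. Of 13 genes listed here as mutated in Diamond-Blackfan anaemia, 12 were tested, and none of these was called by limma, DESeq2 or edgeR. None of the 12 had an unadjusted p under 0.05 in limma, against 12.4% lower and 10.7% higher among all genes tested. These counts cover the listed genes only. Their median log2 fold change was -0.083, which became 0.071 under quantile normalization, with Rpl15 at -0.26, Rps26 at -0.23 and Rps19 at -0.0070.

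The threshold left several members near it. DESeq2 on the recovered reads called 8 members lower and 2 higher, where its background shares were 4.45% and 2.44%. These were Rps13, Rps15, Rps23, Rpsa, Rpl10a, Rpl28, Rpl29 and Rpl36 among the lower and Rps27l and Rpl39 among the higher, with log2 fold changes of -0.34 to -0.44 for the lower ones other than Rps13. With the day as a block DESeq2 called 5 lower and 2 higher, where the background shares were 2.44% and 0.907%. Quantile normalization gave 5 higher members (among them Rpl39, Rps27l and Rps4x) and 1 lower (Rps13), beside 2 and 1 in the main result. With that normalization 2.08% of all genes were called higher and 2.16% lower. In limma with 1 library left out, Rps15 (-0.52) and Rps23 (-0.50) were called lower without wildtype replicate 2, Rpl10a (-0.42) without wildtype replicate 3 and Rplp2 (-0.69) without EVX1-Δfs replicate 1. edgeR called the same 3 genes as limma, with 2.87% of all genes called lower and 2.35% higher.

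Genes that work with the ribosome were set beside the members. Of ribosome components whose symbols fall outside the rule, Fau had a log2 fold change of -0.32 (adjusted p = 0.122) and Rpl36al one of -0.43 (adjusted p = 0.0565), and DESeq2 called Rpl36al lower. Of 76 mitochondrial ribosomal protein genes, 5 were lower and none higher, with a median of -0.11 and Mrpl38 (-0.58) and Mrpl2 (-0.56) furthest down. Of 14 elongation factors and other genes with a pyrimidine start, 1 was lower, Eif4b (6617 ± 733 and 4964 ± 303 normalized counts, -0.41, adjusted p = 0.0451), and Eef2 had -0.52 (adjusted p = 0.0720), with a median of -0.28. Of 24 initiation factors, the helicase gene Eif4a2 was higher (0.50, adjusted p = 0.0373), and the median of -0.070 turned to 0.0067 under quantile normalization. At an unadjusted p under 0.05 (limma), 9 mitochondrial genes, 8 genes of the elongation list and 6 initiation factors were lower. Higher at that level were 2 initiation factors and none of the mitochondrial or elongation genes.

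Ribosome assembly genes leaned lower. Of 37 biogenesis genes limma called 4 lower, Bysl (-0.56), Fbl of the RNA-methylating snoRNPs (-0.49), Bop1 (-0.48) and Rrp9 (-0.39), with a median of -0.17. At an unadjusted p under 0.05 (limma) 13 of the 37 were lower and none higher. Of 13 tested genes of RNA polymerase I, which makes the ribosomal RNA, none was called by limma, edgeR or DESeq2. At an unadjusted p under 0.05 (limma) 4 of these 13 were lower and none higher, and their median was -0.14. Of 15 genes of the MYC and mTOR growth pathways, Myc (907 ± 165 and 523 ± 105 normalized counts, -0.80, adjusted p = 0.00358) and Mycn (-0.51, adjusted p = 0.0372) were lower. Of 16 p53 targets, Trp53inp1 was higher (0.63) and Bax lower (-0.40), with a median of -0.053 that became 0.0055 with GC and length trends removed. At an unadjusted p under 0.05 (limma) 5 p53 targets were higher and 4 lower, and 4 genes of the MYC and mTOR list were lower and none higher. For all of these lists the background shares are the 2.95% lower and 2.08% higher given above, and at an unadjusted p under 0.05 they are 12.4% lower and 10.7% higher.

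The lists leaned on the replicate 3 libraries too, but not all to the same degree as the members. Pair medians for replicates 1 to 3 were -0.093, -0.11 and -0.26 for biogenesis and -0.13, -0.075 and -0.61 for the elongation list. The RNA polymerase I and the MYC and mTOR lists were also below 0 in every pair. The mitochondrial, initiation and p53 lists each had a pair above 0. With both replicate 3 libraries left out, the median log2 fold change was -0.10 for the elongation list, -0.059 for biogenesis, -0.057 for MYC and mTOR, -0.010 for RNA polymerase I, 0.0068 for mitochondrial ribosomal proteins, 0.0014 for initiation and 0.017 for p53 targets. Called genes were then 2 mitochondrial ribosomal protein genes and 1 gene of the MYC and mTOR list, all lower, and none in the elongation, initiation, biogenesis, RNA polymerase I or p53 lists. Of the streak and mesoderm markers 5 were still called lower. With the day as a block on all 6 libraries, limma called 2 mitochondrial ribosomal protein genes (Mrpl38 and Mrpl2) and both Myc and Mycn lower, none of the elongation, initiation, biogenesis or p53 lists, no pluripotency marker, 5 of the streak and mesoderm markers lower, and of the endoderm markers 1 higher and 1 lower. DESeq2 with that block called 2 genes of the elongation list and 1 of the biogenesis list lower and none of the initiation or p53 lists. DESeq2 without it called 4 genes of the elongation list and 5 of the biogenesis list lower.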

How the data were processed

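mRNA was selected from 3 wildtype and 3 EVX1-Δfs D4 EB samples and sequenced on an Ion Proton. The authors mapped reads to mm9 with TopHat2 and TMAP and counted them per gene with HTSeq at standard settings (versions and annotation not given in the sources used here). The deposited values are a signal, read counts divided by a size factor per library. With a tolerance of 0.001, 100% of values were whole multiples of the library's step (largest distance 0.000101), and the factors were within 0.00577% of DESeq2's. The recovered reads number 7597879 to 9914471 per library, and no p-value covers more than the spread between these libraries.

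Members and gene lists were chosen with earlier results of these data known. The main test was limma 3.58.1 (trend) on log2(normalized count + 1), genotype only, for genes with at least 10 in at least 3 libraries (13136 of 23353), with adjusted p under 0.05 called. Fold changes are on this scale, which understates low genes. edgeR 4.0.16 (quasi-likelihood) and DESeq2 1.42.0, in R 4.3.3, were run on the recovered reads. Self-tests used simulated counts. Other alternatives were pseudocounts of 4 and 16, no filter, TMM, upper-quartile and quantile scaling, size factors without the members, removal of GC and length trends, the replicate block and leaving out libraries.

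Replicate numbers pair the libraries because the series' design text gives each side-by-side differentiation its own day. The sample titles do not say that the same number means the same day in both genotypes. The correlation of same-numbered deviations from the group means was 0.11, 0.0093 and -0.10 over 13136 genes and 0.66, -0.12 and 0.38 over the 80 tested members.

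Positions and transcript lengths came from GENCODE on NCBIM37, to which 83 of 84 members and 94.4% of all symbols were matched. Promoters came from RefSeq (GRCm38.p6), with 63 of 84 members matched. A 50-base window counted as copied when it occurred exactly elsewhere in the genome. Levels per kb and copied shares used a chosen transcript of each member, which could hold long non-coding stretches. For Rps15a it had 3721 bases, 393 of them coding. Genes named were the called members, the 5 highest and 5 lowest by log2 fold change and by level per kb, paralogs with parents, the developmental and Diamond-Blackfan lists, and called members of the other lists with at most 4 examples. Others (Rpl36, Rps23, the DESeq2 calls, Rplp0, Rpl26, Rpl30, the genes near Rps13 and the genes with printed promoters) were chosen after their values were seen. Values of a few genes of these lists are not reported here.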

Additional observations from a re-analysis of the deposited data

How the results depend on the processing

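Rps13 was called lower under all 20 alternatives. Rps27l was called under 14 of them (log2 fold change 0.33 to 0.51, adjusted p 0.00471 to 0.117) and Rpl39 under 11 (0.31 to 0.58, adjusted p 0.0150 to 0.245). The number of members called higher was 2 in the main result, 1 with all genes that have any read, 5 after quantile normalization, and 0 with the replicate block in limma or with GC and length trends removed, with or without the block. The number called lower was 1 in the main result, 8 with DESeq2 and 5 with DESeq2 and the replicate block. With 1 or both libraries of a day left out, 0 to 2 members were called higher and 1 to 3 lower, the median log2 fold change was -0.13 to -0.0044 for the small and -0.22 to -0.060 for the large subunit, the difference in share was -0.665 to -0.0880 percentage points, and that in the subunit ratio was -0.0025 to 0.0195. The causes were not tested. The replicate block ended the limma calls of Rps27l and Rpl39, which DESeq2 kept with the block, and changed no other limma call of a member.

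Over all genes, calls went from 273 higher and 387 lower to 370 and 325 with upper-quartile scaling, to 76 and 146 with the limma block, to 49 and 91 with the block and GC and length trends removed, and to 517 lower with DESeq2.

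Genes near 0 changed sign, none of them called. Quantile normalization gave 0.19 for Rpl19, 0.13 for Rps2, 0.16 for Rpl7, 0.18 for Rps19, 0.0097 for Rpl35a, 0.083 for Rps7, 0.070 for Rps10, 0.071 for Rps24 and 0.037 for Rps29. Upper-quartile scaling gave 0.0093 for Rpl19 and 0.022 for Rps19, and Rps19 was 0.014 in edgeR and 0.0025 in DESeq2. Removal of GC and length trends, with and without the block, gave -0.026 for Rps15a, 0.016 for Rpl19, 0.066 for Rps2, -0.038 for Rpl10, 0.075 for Rps19 and 0.088 for Rps10. Leaving out libraries gave -0.0092 to 0.047 for Rpl10, -0.30 to 0.13 for Rpl10l, -0.11 to 0.18 for Rpl19, -0.27 to 0.016 for Rpl23, -0.089 to 0.072 for Rpl7, -0.018 to 0.21 for Rplp1, -0.18 to 0.098 for Rps10, -0.011 to 0.19 for Rps15a, -0.038 to 0.084 for Rps18, -0.13 to 0.17 for Rps19, -0.18 to 0.019 for Rps2, -0.20 to 0.0071 for Rps24, -0.12 to 0.26 for Rps28, -0.24 to 0.10 for Rps29 and -0.17 to 0.036 for Rps7.

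Rpl26, Rpl30, Rpl39l and Rpl3l did not pass the filter. Without it limma called none of them, with adjusted p of 0.422 to 0.781, and DESeq2 gave them no adjusted p.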
